A study of Drosophila melanogaster with 3 samples.

Results

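Proximal intronic peaks of Dad, the inhibitory Smad of the fly, are described here. A peak was taken when its summit lay inside an annotated transcript but in no exon, and more than 500 but at most 2000 bp from the nearest annotated transcription start site (TSS) of any gene. The rule used position only, and 428 of the 3392 peaks in the optimal list met it (12.6%). The chromatin was prepared from whole Drosophila melanogaster embryos, 0 to 24 h old and of both sexes, of a transgenic line with GFP stably fused to the C terminus of Dad. An antibody to GFP was used for immunoprecipitation, so recovery was of the tagged protein in all tissues of the embryo together, and cell types cannot be told apart. There were 3 biological replicates in 1 group, with no untagged or untreated group among the samples, and the control library was not analysed here. The optimal list holds the peaks kept by the authors for their reproducibility (irreproducible discovery rate). The lists give regions and signal but no reads, so depth is unknown.

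Dad restrains signalling by bone morphogenetic protein (BMP) ligands such as Dpp. In this pathway a ligand brings together type I and type II receptors, the receptors phosphorylate the Smad protein Mad, and Mad enters the nucleus with its partner Medea to act on target genes, Dad among them. Dad competes with Mad for the receptors. Introns close to a TSS commonly hold enhancers and alternative promoters in fly genes, and the first intron is often the longest.

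The sequences of the 5 peaks of highest signal and of the strongest peaks in the BMP pathway genes Mad and wit show what the summits of this class look like. Each line gives 241 bases centred on the summit, from the RefSeq sequence of build dm6 (Release 6), 5′ to 3′. Capitals mark the 6-letter word CACTGT or its complement ACAGTG, which is described further below.
ush, chr2L:480939-481179, plus strand: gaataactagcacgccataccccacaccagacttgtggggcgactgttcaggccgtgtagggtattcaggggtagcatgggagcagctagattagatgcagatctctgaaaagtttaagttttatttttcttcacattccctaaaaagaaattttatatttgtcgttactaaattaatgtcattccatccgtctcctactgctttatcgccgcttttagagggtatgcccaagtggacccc
CG11050, chr2L:6612607-6612847, plus strand: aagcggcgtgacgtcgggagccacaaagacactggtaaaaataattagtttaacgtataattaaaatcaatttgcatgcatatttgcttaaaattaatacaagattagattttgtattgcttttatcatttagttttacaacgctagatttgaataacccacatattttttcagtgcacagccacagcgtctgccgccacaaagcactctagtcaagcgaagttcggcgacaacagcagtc
Lk6, chr3R:11760927-11761167, plus strand: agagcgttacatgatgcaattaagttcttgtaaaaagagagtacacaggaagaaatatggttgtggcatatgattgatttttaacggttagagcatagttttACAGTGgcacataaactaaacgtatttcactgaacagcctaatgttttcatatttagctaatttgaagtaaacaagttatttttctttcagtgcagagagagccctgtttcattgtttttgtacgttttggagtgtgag
CG9663, chr2L:3302057-3302297, plus strand: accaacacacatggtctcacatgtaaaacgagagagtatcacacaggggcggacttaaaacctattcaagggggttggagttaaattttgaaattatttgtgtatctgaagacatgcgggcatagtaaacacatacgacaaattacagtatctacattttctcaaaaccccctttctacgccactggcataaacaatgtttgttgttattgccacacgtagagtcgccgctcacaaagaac
CG32772, chrX:4910254-4910494, plus strand: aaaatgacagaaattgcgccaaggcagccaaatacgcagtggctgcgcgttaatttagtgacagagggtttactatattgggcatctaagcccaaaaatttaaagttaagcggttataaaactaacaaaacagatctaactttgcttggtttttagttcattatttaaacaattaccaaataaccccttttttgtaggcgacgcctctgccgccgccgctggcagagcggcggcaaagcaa
Mad, chr2L:3153299-3153539, plus strand: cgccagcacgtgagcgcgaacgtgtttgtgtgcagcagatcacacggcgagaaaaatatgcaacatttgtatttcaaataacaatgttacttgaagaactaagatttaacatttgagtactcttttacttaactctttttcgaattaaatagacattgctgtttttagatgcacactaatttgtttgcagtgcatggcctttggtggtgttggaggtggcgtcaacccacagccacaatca
wit, chr3L:4070507-4070747, plus strand: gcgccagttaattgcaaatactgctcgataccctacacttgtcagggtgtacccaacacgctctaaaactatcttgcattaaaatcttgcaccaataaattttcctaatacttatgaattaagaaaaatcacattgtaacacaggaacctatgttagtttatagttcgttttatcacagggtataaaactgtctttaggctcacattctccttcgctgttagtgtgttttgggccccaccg
The central 81 bases of these sequences were poor in G and C. Their GC content was 27.2% in ush, 23.5% in CG11050, 33.3% in Lk6, 29.6% in CG9663, 30.9% in CG32772, 27.2% in Mad and 25.9% in wit. Of these 7, the Lk6 sequence alone held the capital word, 15 bp from its summit.

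The strongest peak of the class lay in the first intron of ush, which encodes a zinc finger cofactor of the GATA factor Pannier. It spanned 2L, 480878 to 481302, and the nearest TSS, 1371 bp away, was that of cbt, which lies within ush and encodes a zinc finger transcription factor. The authors' signal was 1745, rank 2 of all optimal peaks. Relative signal is the value of a replicate's own region divided by the median of such values over all optimal peaks, and at ush it was 13.3, 12.8 and 14.1 in replicates 1, 2 and 3. All 3 values stood above those of every other peak of the class.

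The next strongest peaks lay in genes of varied function. CG11050 (2L, 6612465 to 6612914, signal 1454) had relative signals of 10.5, 11.1 and 12.1, and its summit fell in an intron of 140 bp, the shortest of the class. Lk6 (3R, 11760867 to 11761231, signal 1155), a protein kinase that phosphorylates the translation factor eIF4E, had 9.56, 8.77 and 8.54 in its first intron. CG9663 (2L, 3301999 to 3302360, signal 975) had 8.004, 7.46 and 7.15. CG32772 (X, 4910179 to 4910562, signal 902) had 7.35, 7.17 and 6.68. From ush to CG32772 the 5 genes stood in the same order in every replicate.

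Transcription factors and chromatin proteins were among the next. Adf1 (2R, 6662861 to 6663241, signal 735), a transcription factor of the MADF family, had relative signals of 6.14, 4.87 and 6.00. Trl (3L, 14759303 to 14759713, signal 645), which encodes the GAGA factor, had 4.04, 3.65 and 6.69, so replicate 3 stood well above replicates 1 and 2. HmgZ (2R, 21703146 to 21703585, signal 522), an HMG-box chromosomal protein gene, had 4.51, 3.33 and 4.15. Replicate 2 was the lowest at all 3 genes. In wde (2R, 10808250 to 10808574, signal 516), whose product is a cofactor of the H3K9 methyltransferase eggless, the values were 4.09, 3.95 and 4.00, the closest spread among the 20 strongest supported peaks (SD 0.0740).

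The remainder of the 20 included a protein kinase, a phospholipase and a dehydrogenase gene. The peak in for (signal 476), a cGMP-dependent protein kinase gene, had 3.56, 3.67 and 3.74. The one in norpA (signal 451), the phospholipase C of phototransduction, had 3.55, 2.93 and 3.77. Both genes had a peak in the first intron, downstream of their own TSS. Zw (signal 451), the glucose-6-phosphate dehydrogenase gene, had 3.97, 3.88 and 2.90. The TSS nearest that peak, 866 bp away, was that of another gene, asRNA:CR44512. In chif (signal 471), a Dbf4-like regulator of replication, the values were 2.63, 3.96 and 4.19, with replicate 1 lowest. CG9837, LPCAT (a lysophospholipid acyltransferase), CG3726, Reph, NFAT (the fly homologue of the NFAT transcription factors), CG31635 and CG9135 complete the set, with mean relative signals between 3.38 in CG9135 and 4.57 in CG9837.

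**Figure D1:**
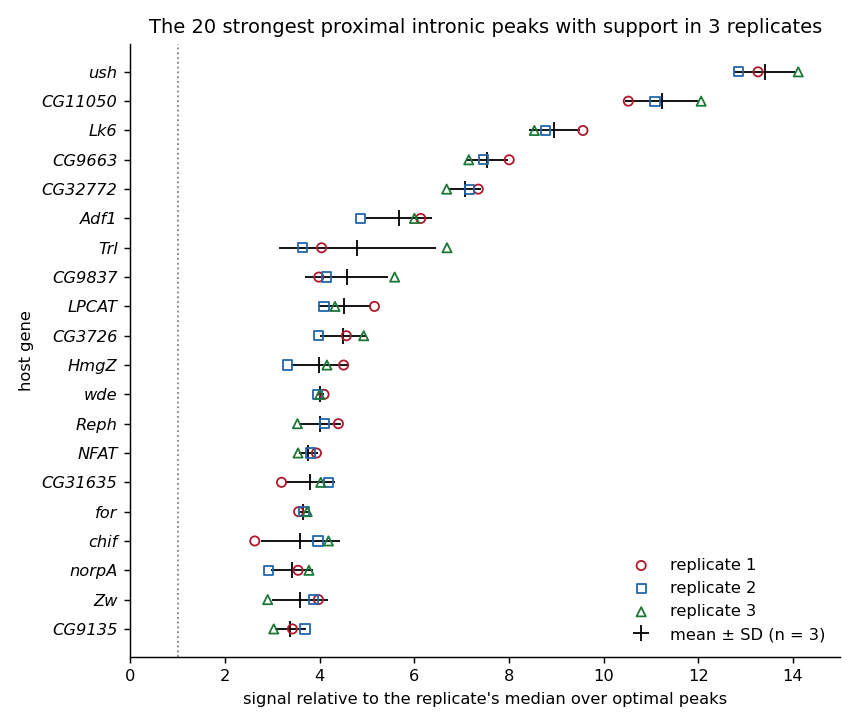
Signal of the 20 strongest proximal intronic peaks that all 3 replicates support, named by host gene (y axis) and given relative to the median of each replicate (x axis); open symbols are replicates, and black marks are the mean ± SD (n = 3). The peak in ush lies at 12.8 to 14.1, above all others, and every value of the 20 peaks lies right of the dotted line at 1.

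Of 22 BMP pathway genes with intron sequence in the class, 4 held 1 peak each (18.2%, Wilson 95% interval 7.31 to 38.5), none of them among the 20 strongest. Of 26 Dpp target genes ush alone held one. Across all 9009 protein-coding genes with such sequence 385 held a peak (4.27%). In these and the later list counts, a gene held a peak when a summit lay in any of its introns. Genes with overlapping introns could therefore share a peak. Gene counts do not allow for the length of such sequence. The 22 pathway genes had 69.3 kb of it together, and the genome had 11.4 Mb. Whether length accounts for the difference in gene counts was not tested. Per Mb of that sequence the pathway list held 57.7 peaks and the Dpp target list 15.9, against 37.6 over the genome. Each list rests on 1 to 4 peaks, and no test was made.

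Mad, the receptor-activated Smad that Dad opposes, had a peak at 2L, 3153322 to 3153502 (signal 275), in the first intron, 666 bp upstream of one of its own TSSs. Its relative signals were 2.27, 1.57 and 2.40. The BMP type II receptor gene wit (3L, 4070422 to 4070831, signal 184) had 1.37, 1.17 and 1.64, at 1090 bp downstream of its TSS. Both peaks lay above the median of the optimal list in all 3 replicates. The peak in shn (2R, 11196864 to 11197273, signal 151), a zinc finger partner of Mad and Medea, had 1.36, 1.43 and 1.03. The one in magu (2R, 10055608 to 10056017, signal 81.7), a secreted modulator of BMP signalling, had 0.715, 0.712 and 0.617 and was among the top regions of 1 replicate only. That peak was below the median in every replicate. The gene Dad had an intronic peak at 2010 bp, just past the upper limit, with a signal of 140.

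A further peak lay near brk, which encodes the repressor of Dpp target genes that the pathway itself turns down. Its summit was 839 bp from the brk TSS but inside a 73902 bp intron of CG1677 that also spans the neighbouring genes (X, 7306895 to 7307304, signal 157). The relative signals there were 1.16, 1.02 and 1.46, above the median in all 3 replicates.

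Most host genes had a single peak. The 428 peaks lay in 362 genes, taking the gene with the shortest intron at each summit, and 312 of these had 1, 41 had 2 and 9 had 3 or more. Of the hosts, 352 were protein-coding and 10 noncoding. CG1677 had 6 in the intron just named, near the TSSs of brk, unc-119, CBP and CG42780, with signals from 81.4 to 235. CHES-1-like, a forkhead-family gene on X, had 4 distinct peaks with signals of 278, 251, 207 and 173, all supported by all 3 replicates. Their GC content within 100 bp was 25.9% to 30.3%, below the 37.2% mean of the class.

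The other genes with several peaks include regulators of chromatin. Tlk, the Tousled-like kinase gene, had 4 peaks with signals from 86.4 to 184, and 2 of them had support from all 3 replicates. Trl had 3, of which the weaker pair, at 112 and 102, had support from 2 replicates each. At one of that pair the relative signal was 1.11, 0.235 and 1.10, so replicate 2 stood far below the other replicates. HmgZ and NFAT had 4 each, psq and tou 3 each and CG10543 3. In HmgZ, NFAT, psq and tou a pair of those peaks lay within 199 to 237 bp of each other and shared the same replicate regions, so their replicate values are not separate measurements. Over the class 35 peaks overlapped another optimal peak.

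Among the other lists, translation and RNA control genes held peaks in 7 of 26 genes with such sequence and neural genes in 5 of 20. Actin and adhesion genes held them in 6 of 33, chromatin regulators in 4 of 42 and EGFR genes in 3 of 18. Insulin and TOR genes held them in 3 of 17, and ecdysone and nuclear receptor genes in 3 of 20. The Notch list had 2 of 15, Wingless and Hedgehog 2 of 22, cell cycle 1 of 22, and Hippo 0 of 12. Over all protein-coding genes with such sequence the share was 385 of 9009 (4.27%). Per Mb of intron sequence in the class, chromatin regulators stood highest at 147, from 8 peaks in 54.5 kb, of which 6 were in Trl and psq. The other lists of this paragraph that held a peak lay between 29.1 and 82.3 per Mb, against 37.6 over the genome. These are descriptions of small counts, with no test.

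Of the strongest peaks in these lists, those in Trl and Lk6, described above, were among the 20 strongest of the class. In tsr, the cofilin gene, relative signals were 3.11, 3.61 and 2.17 (signal 384). In drk, the adaptor between receptor tyrosine kinases and Ras, they were 2.22, 2.49 and 2.42 (signal 321), and in InR, the insulin receptor gene, 2.48, 2.17 and 2.62 (signal 311). These 3 peaks were at least 2-fold above the median in every replicate. For the drk peak the nearest TSS, 856 bp away, was that of another gene, mars. EcR, the ecdysone receptor gene, had relative signals of 2.84, 1.65 and 1.64 (signal 257). There the nearest TSS, 1375 bp away, was that of another gene, tRNA:Asn-GTT-1-1. In brat, a translational repressor acting in neural stem cells, relative signals were 1.69, 1.92 and 1.88 (signal 244). In neur, a ubiquitin ligase of the Notch pathway, they were 1.03, 1.15 and 1.29, and in boi, a Hedgehog co-receptor gene, 1.11, 0.829 and 1.13. Mnt, a Myc antagonist of the cell cycle list, had 0.850, 0.860 and 0.939, below the median throughout.

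The density of peaks fell with distance from the TSS. The class covers 11.4 Mb of intron sequence, 8.50% of the chromosome arms, and held 37.6 peaks per Mb of it. Introns farther than 2000 bp held 11.5 per Mb, and introns within 500 bp held 103. Within the class, 207 summits lay at 500 to 1000 bp (47.2 per Mb), 131 at 1000 to 1500 bp (34.9 per Mb) and 90 at 1500 to 2000 bp (27.8 per Mb). Median signal did not follow the density, at 121, 119 and 129 in the same order. The pooled list has 2902 further regions in this position class that overlap no optimal peak, called other regions here, and their density fell less across 250 bp steps, with 271 per Mb at 500 to 750 bp and 236 at 1750 to 2000 bp. In the same steps the peaks had 54.8 and 28.9 per Mb.

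**Figure D2:**
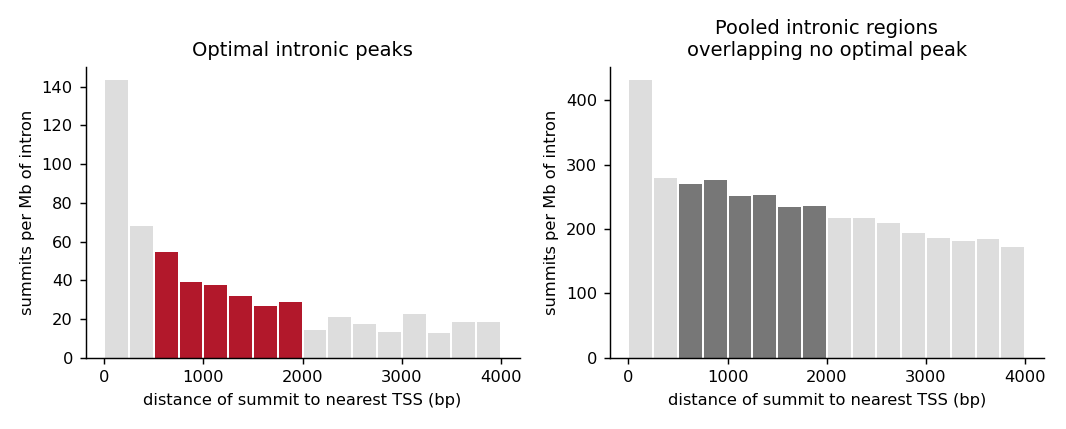
Summits per Mb of intron sequence (y axis) by distance to the nearest TSS in 250 bp steps (x axis), for optimal peaks on the left and pooled regions that overlap no optimal peak on the right; dark bars mark the steps from 500 to 2000 bp. Optimal peaks have 54.8 per Mb at 500 to 750 bp and 28.9 at 1750 to 2000 bp, and the other regions have 271 and 236.

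The limits cut through a continuous range of peaks. Just inside the lower limit lay peaks in Rubicon (505 bp, signal 172), Sur-8 (509 bp, 81.5) and stet (511 bp, 101). Just outside it were lola (500 bp, 251), jar (497 bp, 241) and bun (495 bp, 122). At the upper limit Lerp (1996 bp, signal 183), hiw (1995 bp, 248) and RhoGAP18B (1994 bp, 108) were inside, and Dad (2010 bp, 140), lncRNA:CR44320 (2013 bp, 200) and Hr3 (2020 bp, 98.9) were outside. At the lower limit lola and jar, outside, exceeded the 3 peaks inside, and at the upper limit the signals inside and outside overlapped.

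First introns held most of the peaks. The summit was in a first intron of at least 1 transcript of the host gene for 348 of 428 proximal intronic peaks (81.3%, Wilson 95% interval 77.3 to 84.7). The share was 60.2% for the 477 intronic peaks beyond 2000 bp and 75.2% for the other regions. First introns of any gene make up 64.6% of the intron sequence in the class, a wider definition than that used for the summits. When the rule was applied to each replicate's own 3392 regions of highest signal, it found 396, 437 and 432 regions, and 82.3%, 82.6% and 82.4% of these lay in first introns. Regions of the class below that rank had 71.4%, 74.4% and 73.5%, a difference of 9.36 ± 1.38 percentage points (SD, n = 3; exact sign-flip permutation test over replicates, two-sided, p = 0.25). That is the smallest p that 3 replicates allow, and the difference had 1 sign in 3 of 3. Counting only the longest transcript of each gene lowered the share to 61.2% for the peaks, 38.6% for those beyond 2000 bp and 57.6% for the other regions.

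The side of the TSS was also recorded. The summit lay downstream of the nearest TSS for 268 peaks (62.6%, 57.9 to 67.1), against 67.4% of the other regions and 64.6% of the intron sequence. In 257 peaks the nearest TSS belonged to a gene with an intron at the summit, not always the one with the shortest intron, and the summit lay downstream of it. In 117 (27.3%, 23.3 to 31.7) the TSS belonged to such a gene and the summit lay upstream of it, against 19.2% of the other regions. The TSS of a gene with no intron at the summit was nearest for 54 peaks (12.6%, 9.80 to 16.1), against 20.1% of the other regions. Median signal was similar in the 3 arrangements, at 121, 122 and 128.

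A minority of the proximal intronic peaks were accompanied by a peak at the nearest TSS. An optimal peak had its summit within 500 bp of that TSS for 113 of 428 (26.4%, 22.4 to 30.8), against 17.4% of the other regions. Intronic peaks beyond 2000 bp had 23.9% (20.3 to 27.9), an interval that overlapped that of the class. The strongest peaks of the class went both ways. Those in ush, Adf1 and LPCAT had such a peak at the nearest TSS, and those in CG11050, Lk6, CG9663 and CG32772 had none.

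At the upper end of signal the class lay above distal intronic peaks, near promoter peaks as a whole, and the 437 intronic peaks within 500 bp of a TSS had the highest share. The median signal was 122 in a range of 80.9 to 1745, and 42 peaks (9.81%, 7.34 to 13.0) reached 300, against 4.40% of the intronic peaks beyond 2000 bp, 8.96% of the 2075 peaks within 500 bp of a TSS and 13.5% (10.6 to 17.0) of the intronic ones among these, whose interval overlapped that of the class. The share of the class whose strongest overlapping region in a replicate ranked in its top 339 was 11.4%, 12.6% and 12.1%. Peaks that overlapped the same region shared its rank. Distal intronic peaks had 4.61%, 6.92% and 7.55%. The difference was 5.71 ± 1.12 percentage points (SD, n = 3; exact sign-flip test, p = 0.25, higher in 3 of 3). Against promoter peaks, at 12.4%, 11.8% and 12.2%, the difference was -0.0890 ± 0.897 points, within the spread of the replicates (exact p = 0.75).

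Medians moved less than the upper end. The median relative signal was 0.980, 1.00 and 1.08 for proximal intronic peaks, against 0.929, 0.966 and 0.941 for distal intronic ones, a difference of 0.0750 ± 0.0542 (SD, n = 3; exact sign-flip test, p = 0.25, higher in 3 of 3). From the signal of the optimal list the same difference was 0.0127. Promoter peaks had 1.04, 1.01 and 1.02, with a difference of -0.0014 ± 0.0585 (exact p = 1), and the intronic ones among them had 1.05, 1.11 and 1.12. Median signal in the optimal list was 122 for the class, 120 for distal intronic peaks, 123 for promoter peaks and 129 for the intronic ones among them.

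Support by replicates followed the signal. A peak counted as supported when 1 of a replicate's own 3392 strongest regions overlapped it, and 341, 332 and 369 of the 428 were supported by replicates 1, 2 and 3. All 3 supported 244 (57.0%, 52.3 to 61.6), against 57% of all optimal peaks, a share near that of the whole list. In 4 sets of 107 from strongest to weakest, 107, 99, 37 and 1 had support from all 3. The optimal list was itself built for reproducibility between these replicates, so the shares are no independent test.

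The X chromosome was more densely populated than the large autosomal arms. It held 112 of the 428 peaks (26.2%, 22.2 to 30.5), against 18.0% of all optimal peaks, 15.6% of promoter peaks, 22.9% of the intronic ones among these, 24.5% of distal intronic peaks and 17.2% of the other regions. A share above that of the whole list was thus found for intronic peaks at all 3 distances. Per Mb of intron sequence in the class, X had 51.2 peaks (exact Poisson 95% interval 42.2 to 61.6), and arms 2L, 2R, 3L and 3R had 32.1 to 36.5. The other regions ran the opposite way, at 228 per Mb on X and 251 to 270 on those arms. Chromosome 4 had 1 peak.

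The same was seen in each replicate's own strongest regions. On X lay 24.7%, 22.4% and 24.8% of those in the class, against 15.9%, 16.9% and 17.6% of the regions of lower rank, a difference of 7.20 ± 1.69 points (SD, n = 3). Against promoter regions of the same replicates the difference was 8.98 ± 0.410 points. Median signal was 134 for the peaks on X and 120 for those on the autosomes, and 61.6% and 55.4% had support from all 3 replicates. This chromosome was singled out after its values were seen, so no test is given.

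**Figure D3:**
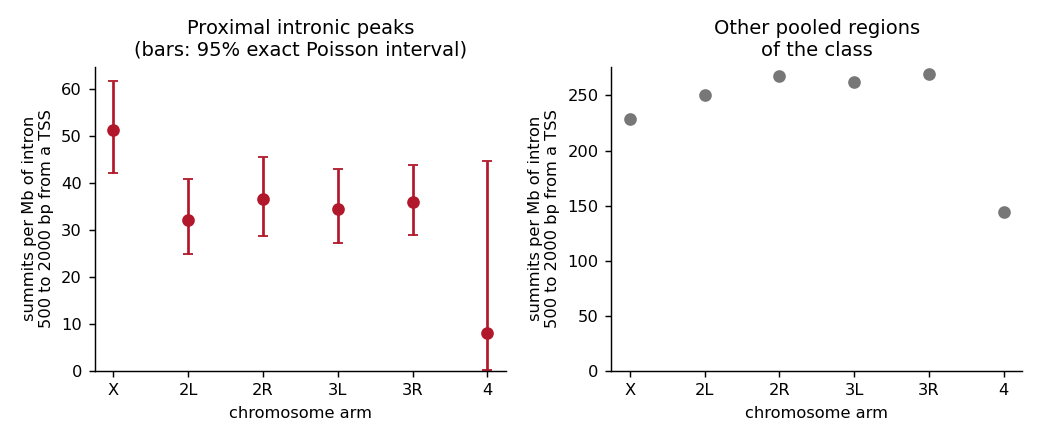
Summits per Mb of intron sequence lying 500 to 2000 bp from a TSS (y axis) on each chromosome arm (x axis), for proximal intronic peaks on the left, with 95% exact Poisson intervals, and for other pooled regions of the class on the right. X stands at 51.2 for the peaks, above 32.1 to 36.5 on the large autosomal arms, and at 228 for the other regions, below their 251 to 270.

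The summits lay in a narrow dip of GC content. Within 100 bp of the summit GC averaged 37.2% in proximal intronic peaks, against 36.7% in distal intronic peaks, 39.4% in promoter peaks and 42.3% in the other regions. All intron sequence of the class together had 38.7%, between the peaks and the other regions. The flanks of the same peaks, centred 500 bp to each side, had 41.8%, and 311 of 428 peaks (72.7%) were lower than their own flanks. These flanks were not limited to introns, so some lay outside the intron of the summit. The part of this in the contrast was not tested. In 40 bp steps the steps on either side of the summit were near 35.1%, and beyond 120 bp the peaks stood near the other regions. The central 81 bases had under 30% GC in 133 peaks (31.1%, 26.9 to 35.6), against 11.9% of the other regions. In replicates the strongest regions of the class were lower in GC content than those of lower rank, at 38.6%, 38.3% and 36.2% against 43.1%, 41.7% and 41.4%, a mean difference of -4.36 ± 0.920 points (SD, n = 3; exact sign-flip test, p = 0.25, lower in 3 of 3).

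Base composition differed between these sets, and its part in the motif shares was not tested. Motifs were searched as exact letters, in either orientation, up to 100 bp from the summit; a match describes the letters and is not a bound site. Of 26 listed motifs, 21 were less frequent in proximal intronic peaks than in the other regions, and in replicates 11 were lower in 3 of 3, 4 higher in 3 of 3 and 11 mixed. The 4 were the BEAF-32, Grainyhead, homeodomain and Bicoid letters.

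Among letters known from promoters, those of DRE and M1BP were nearly missing, and those of BEAF-32 were below their share in promoter peaks. The DRE letters TATCGATA were in 1 peak (0.234%), against 10.3% of promoter peaks and 0.414% of the other regions. The M1BP letters GGTCACACT were in 0 of 428 peaks, where the Wilson upper bound is 0.890%, against 4.10% of promoter peaks. The BEAF-32 letters CGATA were in 24.1% (20.3 to 28.3), against 43.3% of promoter peaks and 22.3% of the other regions. In replicates CGATA differed from its share in promoter regions by -18.4 ± 1.88 points (SD, n = 3; exact sign-flip test, p = 0.25, lower in 3 of 3). The shares in distal intronic peaks were close to those of the class, at 0.419%, 0.210% and 23.9% for these 3 motifs.

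Letters of BMP pathway factors had no higher share in these peaks than in the other regions, and against distal intronic peaks they went both ways. The Mad and Brinker overlap GGCGCC was in 3.27% (1.96 to 5.42) of proximal intronic peaks and 3.45% of the other regions. The Brinker letters GGCGCT were in 5.61% and 6.96%, the GC-rich Mad letters GCCGNCG in 4.21% and 6.58%, and the Smad box GTCTAG in 3.04% and 3.51%. In replicates GCCGNCG differed by -2.66 ± 0.873 points (SD, n = 3; exact sign-flip test, p = 0.25) and GTCTAG by 0.360 ± 0.690 (exact p = 0.75). Distal intronic peaks had 3.77% (2.40 to 5.89) for GGCGCT and 2.94% (1.76 to 4.87) for GCCGNCG. These intervals overlapped those of the class, 3.80 to 8.21 and 2.68 to 6.55. In replicates the class was higher by 1.76 ± 0.728 and 0.634 ± 0.137 points (SD, n = 3, exact sign-flip test, p = 0.25 each, higher in 3 of 3). For GGCGCC the class was lower in 3 of 3, by -1.08 ± 0.843 points (exact sign-flip test, p = 0.25). For GTCTAG the replicates were mixed, at 1.02 ± 1.39 points. Above the other regions stood the Bicoid letters TAATCC, at 8.64% against 5.10%, the Grainyhead letters AACNGGTT, at 4.44% against 3.20%, and the homeodomain core TAATTA, at 16.1% against 12.8%, with overlapping intervals for Grainyhead and homeodomain.

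**Figure D4:**
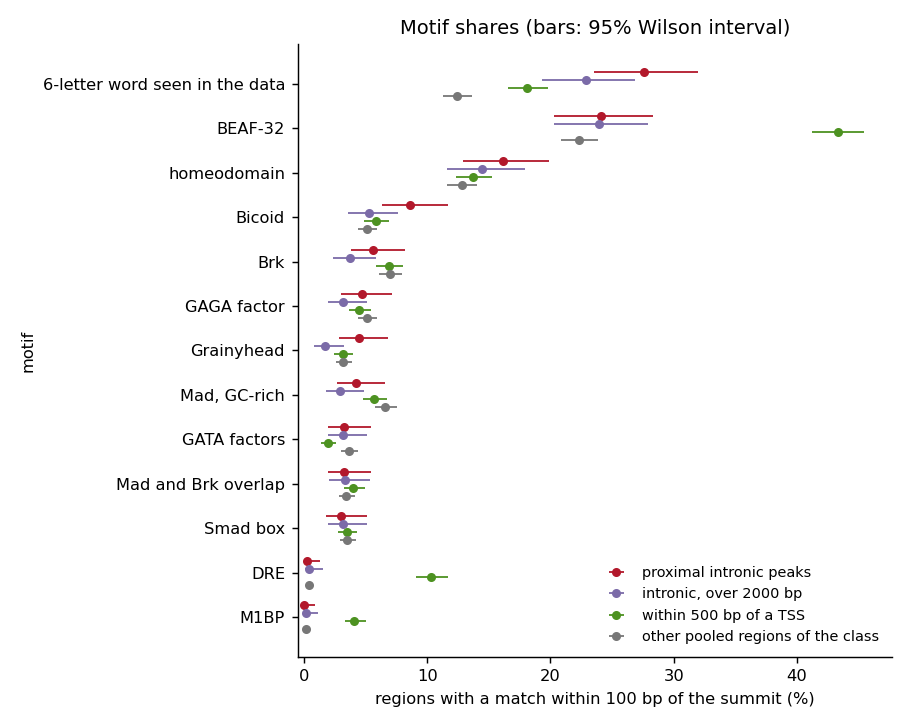
Share of regions with a match to each motif within 100 bp of the summit (x axis, percent, with 95% Wilson intervals) for 13 motifs (y axis), in proximal intronic peaks, intronic peaks beyond 2000 bp, promoter peaks and other pooled regions of the class. Promoter peaks stand apart for BEAF-32 at 43.3%, DRE at 10.3% and M1BP at 4.10%. Proximal intronic peaks stand highest, at 27.6%, for the 6-letter word CACTGT, with an interval that overlaps that of intronic peaks beyond 2000 bp.

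A 6-letter word outside that list was more frequent in these peaks than in the other regions. Among all 2080 6-letter words, counted with their complements, CACTGT had the second largest excess over the other regions, after the AT-only word TTAAAA. It was in 118 of 428 peaks (27.6%, 23.6 to 32.0), against 18.1% of promoter peaks, 12.4% of the other regions and 9.58% of the flanks. Distal intronic peaks had 22.9% (19.3 to 26.8), an interval that overlapped that of the class. In replicates the class stood above distal intronic regions by 2.65 ± 0.837 points (SD, n = 3). The word was in 25.5%, 24.3% and 23.6% of each replicate's strongest regions of the class, against 11.5%, 11.2% and 11.6% of those of lower rank. That is a difference of 13.0 ± 1.02 points (SD, n = 3). TTAAAA was in 44.2%, against 28.8% of the other regions, 40.3% of distal intronic peaks and 43.1% of promoter peaks. The related word CACTGA was in 19.9%, against 10.4%, 19.3% and 13.4% in the same order. These words were chosen after their values were seen, so no test is given.

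The word was most frequent within 120 bp of the summit, with its highest steps off the centre. In 40 bp steps from the summit outwards CACTGT had 1.34, 2.16 and 1.87 matches per kb on the left and 1.05, 1.17 and 2.34 on the right, so the 2 sides differed at 40 to 80 bp. Over both sides it had 1.42 per kb within 80 bp, 1.18 at 80 to 240 bp and 0.533 at 240 to 400 bp, against 0.743, 0.574 and 0.434 in the other regions. In 27 peaks (6.31%, 4.37 to 9.02) it was present on both sides within 120 bp, against 5.87% of distal intronic peaks (4.09 to 8.35), 2.41% of promoter peaks and 1.14% of the other regions, so the layout was about as frequent in intronic peaks farther from a TSS. Of the strongest such peaks with support in all replicates, those in NFAT and for show this layout. Their lines follow the same form as above, with CACTGT or ACAGTG in capitals.
NFAT, chrX:13640375-13640615, plus strand: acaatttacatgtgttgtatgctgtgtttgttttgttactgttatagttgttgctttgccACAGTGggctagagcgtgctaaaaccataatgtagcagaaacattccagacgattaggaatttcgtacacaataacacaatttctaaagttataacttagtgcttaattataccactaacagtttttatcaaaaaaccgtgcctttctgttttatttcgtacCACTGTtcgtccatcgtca
for, chr2L:3655694-3655934, plus strand: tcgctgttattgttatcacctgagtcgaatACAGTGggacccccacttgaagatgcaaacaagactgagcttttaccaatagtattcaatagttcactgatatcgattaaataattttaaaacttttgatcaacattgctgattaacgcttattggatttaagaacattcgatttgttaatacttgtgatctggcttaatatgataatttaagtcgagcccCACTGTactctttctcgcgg
In NFAT the matches lay 57 and 105 bp to the left and right of the summit, and in for 87 and 104 bp. The central 81 bases had 29.6% GC in NFAT and 24.7% in for. Median signal was 127 in the 118 peaks with a match and 121 in the 310 without. Median relative signal was 1.01, 1.03 and 1.13 with a match in replicates 1, 2 and 3. Without one it was 0.978, 0.986 and 1.06, lower in 3 of 3, and no test was made.

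GAGA elements were dense outside the dip. The letters GAGAG, part of the longer GAGAGAG motif of the GAGA factor, had 4.47 matches per kb at 80 to 240 bp from the summit in proximal intronic peaks, 3.26 in distal intronic peaks and 2.32 in the other regions. At 240 to 400 bp the values in the same order were 3.84, 3.12 and 2.29, and within 80 bp 2.16, 1.97 and 2.49. Distal intronic peaks thus also had more GAGAG outside the dip than within it, at lower values than the class. Each replicate's strongest regions of the class had 4.45, 4.57 and 4.41 per kb at 80 to 240 bp, against 2.23, 2.37 and 2.33 in regions of lower rank. The zones were chosen after the profile was seen, so no test is given. Within 100 bp the full GAGAGAG was in 4.67% of the peaks and 5.10% of the other regions, so the excess was in the surroundings and not at the summit.

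**Figure D5:**
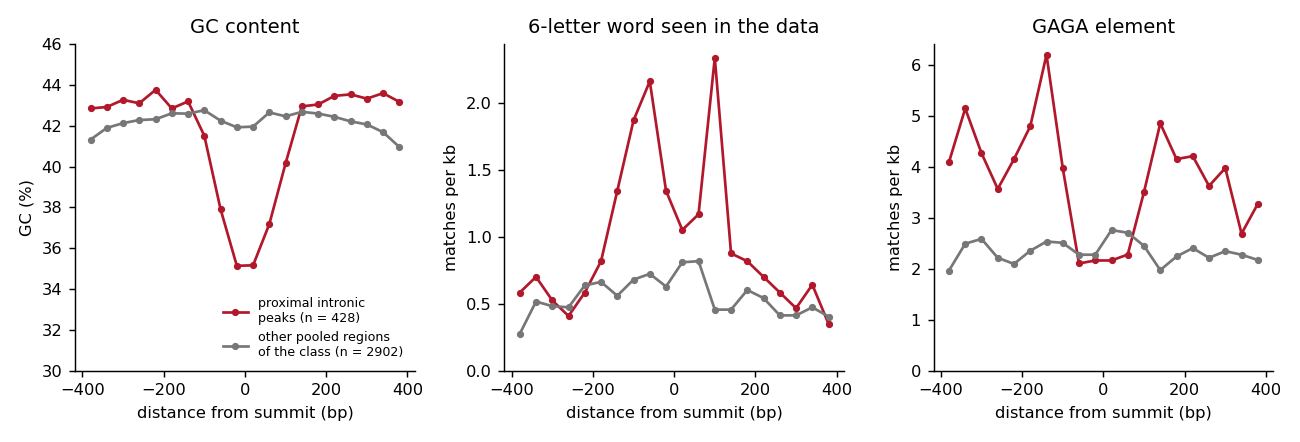
GC content in percent (left), matches per kb to the word CACTGT (middle) and matches per kb to GAGAG (right) on the y axes, in 40 bp steps by distance from the summit (x axis, minus values to the left on the plus strand), for 428 proximal intronic peaks and 2902 other pooled regions of the class. GC falls to 35.1% at the centre of the peaks, the word has its highest steps at 2.16 on the left and 2.34 on the right of the summit, and GAGAG reaches 6.19 left and 4.85 right of it.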

How the data were processed

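The 3 biological replicates are samples of 1 group, so no groups were compared. According to the listings deposited with the lists, the authors called 30000 regions in every replicate and in the pooled alignments, with a control alignment, and derived the optimal list from these. Of the aligner, caller and cut-off, names and settings were not given in the sources used here. As deposited, signal is the caller's value for a region and is not scaled between lists, so it was used for ranks within a list and, after division by a per-replicate median, as relative signal. The deposited −log10 q values stood at their highest value, 3.87, in all 428 peaks and were not used. For 3 optimal peaks with a summit offset beyond the region, its final base was used. Depth is unknown, and intervals cover counting error only.

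Genes came from Ensembl release 115 (BDGP6.54), and sequence from RefSeq for that assembly. The host gene is the one with the shortest annotated intron at the summit. Analyses used Python 3.11.15, numpy 2.4.6, pandas 2.3.3 and scipy 1.17.1. A replicate was compared through its own 3392 regions of highest signal, with an overlap of at least 1 bp, and differences over replicates by exact sign-flip permutation tests, two-sided. Position rules, overlaps and tests were checked on random positions and constructed cases with known answers. Genes are named by a rule: hosts of the 20 strongest peaks that all replicates support, hosts of 3 or more peaks, BMP pathway and Dpp target hosts, the strongest of each other list and the 3 nearest each limit. The peaks, the 13 gene lists and the 26 motifs were chosen with earlier results of these data known. Alternatives were other limits, overlaps, windows, transcript choices and subsets of peaks, and leaving out each replicate. The sequence of 1 peak is not reported here.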

Additional observations from a re-analysis of the deposited data

How the results depend on the processing

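No paired analysis was possible because the replicates form a single group. Of 137 alternative values, 119 stayed near the reported one (counts within 1.5 times it, other values within its spread or interval) and 18 did not. The number of peaks was 582 with a lower limit of 250 bp, 221 with one of 1000 bp, 338 with an upper limit of 1500 bp, 212 in the stronger part of the list, and 276 to 308 without 1 replicate, where fewer regions were available. The share supported by all replicates was 45.3% with 50% reciprocal overlap, 98.6% with all 30000 regions, and 63.1% to 69.9% without 1 replicate, where fewer had to agree. The median relative signal above that of distal intronic peaks was 0.0127 from the optimal list's signal and 0.173 in peaks with full support. The first-intron share was 61.2% by longest transcript. The GC difference from the other regions, -5.15 points, was -6.69 within 50 bp and -1.78 within 250 bp. Of 87 motif shares, 5 left their interval. No cause of the shifts in this paragraph was tested. Unknown depth limits what weak peaks can show: 1 of the weakest 107 had full support.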

Other observations

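The word CACTGT was denser on X. Within 80 bp of the summit it had 2.18 matches per kb in the 112 peaks on X and 1.15 in the 316 on the autosomes, against 1.71 and 1.25 in distal intronic peaks and 0.864 and 0.718 in the other regions. GAGAG at 80 to 240 bp had 5.55 matches per kb in the peaks on X and 4.08 on the autosomes, against 3.71 and 3.11 in distal intronic peaks and 2.53 and 2.27 in the other regions. In 4 sets of 107 peaks from strongest to weakest signal, CACTGT was in 36, 26, 21 and 35, and 35, 27, 27 and 23 lay on X. These values were looked at after the patterns were seen and carry no test.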
